A study of Drosophila melanogaster with 2 samples.

Results

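The 8 forkhead genes examined here are CHES-1-like, jumu, bin, slp1, slp2, fkh, croc and foxo, and the question was where a tagged Dorsocross protein was found on the chromosomes around them. A peak was chosen by its summit, the position the peak caller gives as the point of highest signal. It was counted when that summit had the TSS (transcription start site) of one of these genes as the nearest protein-coding one, or lay inside the gene. By this rule 11 of the 1140 peaks of the series list belonged to the 8 genes, as did 184 of the 140206 peaks of the ranked list from which the series list was taken. Because the peak calls themselves chose the 11 peaks, their signals are given as a description, with no test.

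The data are ChIP-seq (chromatin immunoprecipitation and sequencing) of whole Drosophila melanogaster embryos, 0 to 18 h old, of the strain Doc2-GFP. These transgenic flies make the T-box transcription factor Doc2 as a fusion with eGFP, and chromatin sonicated to 200 to 800 bp was precipitated with an antibody against GFP. There was 1 group with 2 biological replicates, and both carried the transgene. The labels do not say which promoter drives the fusion, and in whole embryos a site bound in few cells cannot be told apart from a site bound weakly in many.

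Forkhead proteins bind DNA through a winged-helix domain, and members of the family direct the fates of many embryonic tissues. CHES-1-like and jumu are known to act in the divisions of heart progenitors, bin in the visceral mesoderm, the neighbouring genes slp1 and slp2 in segmentation, fkh in the salivary gland and gut, and croc in the head. The product of foxo is the transcription factor restrained by insulin signalling. Doc2 and the other Dorsocross proteins are known from the amnioserosa, the dorsal ectoderm and the heart.

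The windows printed here are the 201 bases around 6 of the summits, from the plus strand of the RefSeq sequence of dm6, written 5' to 3'. They were picked to show the peaks of highest signal at CHES-1-like and foxo, the CHES-1-like peak richest in the element ACAGTG, and the single peaks of slp2, bin and slp1. Capitals mark ACAGTG, the forkhead core TAAACA and the T-box site GGTGTGA or its shorter core GTGTGA on either strand, and in slp1 a repeat.
CHES-1-like, chrX:7706871-7707071: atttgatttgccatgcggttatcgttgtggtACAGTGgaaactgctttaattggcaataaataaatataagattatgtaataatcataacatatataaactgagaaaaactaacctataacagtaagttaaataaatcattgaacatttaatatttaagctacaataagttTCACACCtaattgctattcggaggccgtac
CHES-1-like, chrX:7700289-7700489: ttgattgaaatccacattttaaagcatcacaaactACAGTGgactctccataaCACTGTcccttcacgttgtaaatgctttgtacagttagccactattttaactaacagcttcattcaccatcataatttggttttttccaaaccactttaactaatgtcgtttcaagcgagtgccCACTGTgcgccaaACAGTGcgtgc
foxo, chr3R:14053454-14053654: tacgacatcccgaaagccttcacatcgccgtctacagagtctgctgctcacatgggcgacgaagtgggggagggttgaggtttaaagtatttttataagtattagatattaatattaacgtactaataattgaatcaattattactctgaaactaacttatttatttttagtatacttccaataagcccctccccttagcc
slp2, chr2L:3832437-3832637: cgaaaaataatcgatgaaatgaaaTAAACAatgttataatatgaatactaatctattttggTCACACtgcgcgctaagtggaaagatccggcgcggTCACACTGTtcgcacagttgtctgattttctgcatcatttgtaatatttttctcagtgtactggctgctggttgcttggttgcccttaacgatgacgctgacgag
bin, chr3L:6989288-6989488: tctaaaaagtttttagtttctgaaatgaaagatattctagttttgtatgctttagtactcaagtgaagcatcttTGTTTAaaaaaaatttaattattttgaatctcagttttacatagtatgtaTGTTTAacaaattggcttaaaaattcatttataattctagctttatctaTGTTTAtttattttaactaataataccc
slp1, chr2L:3822769-3822969: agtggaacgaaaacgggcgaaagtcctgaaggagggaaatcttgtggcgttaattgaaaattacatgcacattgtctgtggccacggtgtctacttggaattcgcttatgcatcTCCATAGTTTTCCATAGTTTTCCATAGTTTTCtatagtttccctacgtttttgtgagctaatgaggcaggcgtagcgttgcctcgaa

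Of the 8 genes, 5 had at least 1 series peak: CHES-1-like with 6, foxo with 2, and slp2, bin and slp1 with 1 each. By the same rule 7.82% of the 13945 protein-coding genes had one. The genes had been picked with these peaks known, so nothing is read from the difference. No series peak was given to jumu, fkh or croc. The conservative list, which compares the replicates directly, had a peak at the same number of members, 5 of 8, beside 7.24% of all genes. The own thresholded list of replicate 1 had one at 3 of the 8 and at 5.49% of all genes, and that of replicate 2 at 2 of the 8 and at 3.36%. The signal is the value of the authors' peak caller, and the labels and files do not state its scale. It ran from 86.5 to 255 over the 11 peaks, with a median of 124, and the median of all series peaks was 105. Of the 11, 6 lay above that median. The peak of highest signal, at foxo, held rank 106 among the 1140.

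**Figure D1:**
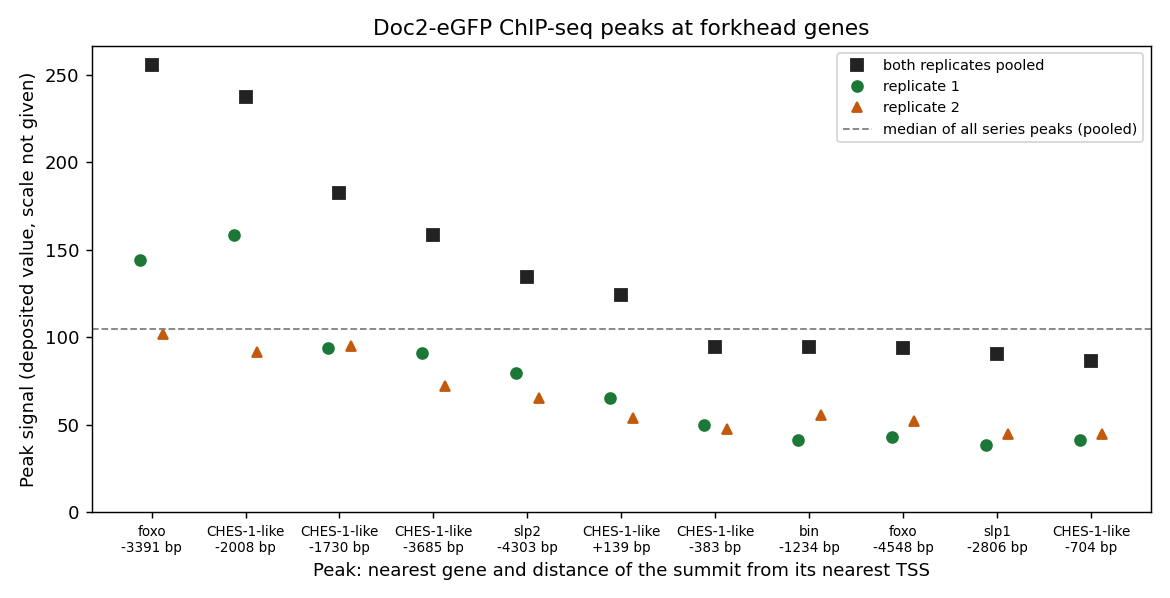
Signal (y axis, deposited value, scale not given) of the 11 series peaks of the forkhead genes (x axis, with the distance of each summit from its nearest TSS, negative upstream), in the pooled list and in each replicate. The pooled signals fall from 255 at foxo to 86.5 at CHES-1-like, and the dashed line is the median of all series peaks, 105.

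CHES-1-like, the fly relative of the human checkpoint suppressor forkhead genes, held 6 of the 11 peaks (54.5%). The gene (FBgn0029504; X, 7682338 to 7709385, minus strand) is 27048 bp long and has 4 annotated TSSs. The 6 summits lay within 12159 bp of each other, from 139 bp to 12298 bp downstream of the most upstream TSS, and the last 14749 bp of the gene held no series peak. Neighbouring summits were 2275, 1304, 5278, 1955 and 1347 bp apart, in the direction of transcription. The median distance between neighbouring series peaks on the same arm was 58370 bp. All 6 summits lay inside this gene of 27048 bp, so no gap between them could reach that median. The comparison therefore cannot show whether the 6 peaks were unusually close, and nothing is read from it.

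The peak of highest signal at CHES-1-like (X, 7706908 to 7707035) lay in an intron, 2008 bp upstream of the nearest TSS. Its signal was 237 in the pooled list, 158 in replicate 1 and 91.8 in replicate 2. It was 128 bp wide, whereas the other 10 forkhead peaks were 350 bp wide, the width of 89.2% of series peaks.

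Another pair of strong intron peaks lay further along the gene. The one at X, 7698259 to 7698608, 1730 bp upstream of its nearest TSS, had a signal of 182 in the pooled list, 94.0 in replicate 1 and 95.2 in replicate 2. The one at X, 7700214 to 7700563, 3685 bp upstream of the same TSS, had 159, 91.2 and 72.1. Both passed the threshold in the own list of each replicate, as the strongest one did.

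The remaining CHES-1-like peaks lay nearer to TSSs. The peak at the first TSS (X, 7709071 to 7709420), in the 5' UTR and 139 bp downstream of the TSS, had a pooled signal of 124, with 65.5 in replicate 1 and 54.1 in replicate 2. An intron peak 383 bp upstream of an internal TSS (X, 7696912 to 7697261) had 94.3, with 50.04 and 47.8. Another, 704 bp upstream of a different internal TSS (X, 7705492 to 7705841), had 86.5, with 41.6 and 44.5. The first 2 of these were past the threshold in the list of replicate 1 alone, and the last in neither replicate's list.

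**Figure D2:**
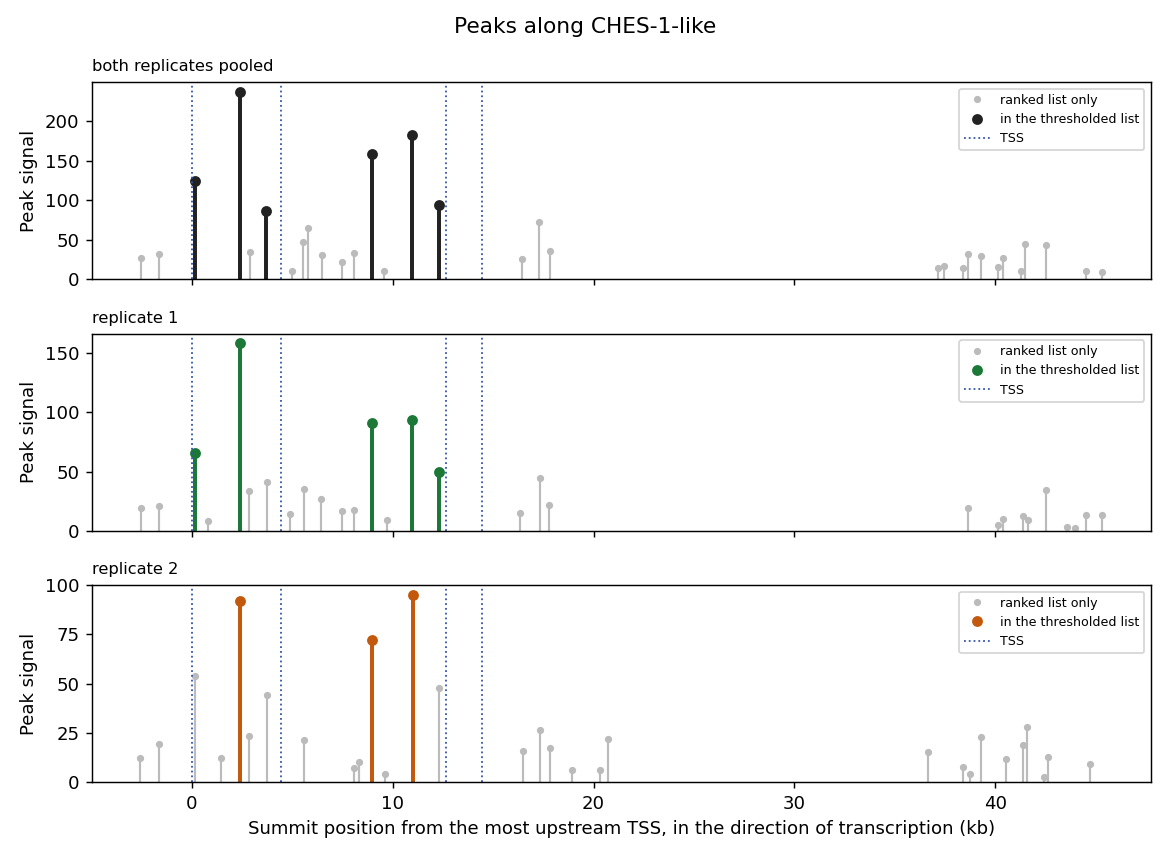
Signal (y axes, deposited value) of every ranked peak given to CHES-1-like against the position of its summit from the most upstream TSS (x axis, kb), for the pooled list and each replicate. Coloured stems are peaks of the thresholded list (6 pooled, 5 in replicate 1 and 3 in replicate 2), grey ones are in the ranked list only, dotted lines are the 4 TSSs, and peaks beyond the gene's 27048 bp lie in the sequence that follows it.

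The deposited IDR (irreproducible discovery rate, which is low for peaks ranked alike in the sets it compares) was above a −log10 of 2, a score of 830, for every series peak. Of the 1214 ranked peaks at or past that score, 74 were not in the series list, none of them at the 8 genes. The CHES-1-like peaks just inside had −log10 values of 2.42, for the peaks of signal 94.3 and 86.5. Just outside was a peak 17281 bp from the first TSS, with a signal of 72.4, a −log10 IDR of 1.98 and a score of 820. It was the strongest of the 25 CHES-1-like peaks in the ranked list only.

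Over the whole genome, 1090 genes had a series peak by this rule. Of these, 933 had 1, 128 had 2, and only CHES-1-like and Raf had 6. Raf, which encodes a kinase downstream of the EGF receptor, is also on X and was the gene most like CHES-1-like by the number of peaks and the highest signal in the pooled series list. Its highest peak had a signal of 241, against 237 at CHES-1-like, and its body is 48405 bp long. Per 10 kb of gene body, CHES-1-like had 2.22 peaks and Raf 1.24. Among the 1977 genes of 10 kb or more, 354 had a peak in the body, with a median of 0.378 peaks per 10 kb, and 1, ph-p, had a higher density than CHES-1-like. This gene of the Polycomb group held 4 peaks in 12162 bp, or 3.29 per 10 kb. CHES-1-like had been picked with its peaks known, so nothing is read from its place in these counts and densities.

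At foxo (FBgn0038197; 3R, 14056945 to 14087978, plus strand), both peaks lay in intergenic sequence upstream. The stronger one (3R, 14053379 to 14053728) had its summit 3391 bp upstream of the nearest TSS, and its signal was 255 in the pooled list, 144 in replicate 1 and 102 in replicate 2. This was the highest pooled value of the 11 and the highest in replicate 2, while in replicate 1 the strongest CHES-1-like peak was higher. The weaker one (3R, 14052222 to 14052571), 1157 bp further upstream, had a signal of 94.0, with 43.3 and 52.1 in the replicates. The ratio of their pooled signals was 2.72. The TSS of the nearest other gene, CG9922, was 17156 bp from the stronger summit. No ranked peak had its summit within 500 bp of a TSS of foxo, in the pooled list or in either replicate. This absence was not limited to the TSSs. In the pooled list no foxo peak lay between the stronger summit and 19503 bp downstream of the first TSS. The next peak downstream was at 19500 bp in replicate 1 and at 19027 bp in replicate 2.

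The neighbours slp1 and slp2 encode closely related FoxG-type repressors of segmentation, and each had 1 intergenic peak upstream. The slp2 peak (2L, 3832362 to 3832711) was 4303 bp upstream of slp2 (FBgn0004567) and 5438 bp beyond the end of slp1, with a signal of 134 in the pooled list, 79.4 in replicate 1 and 65.5 in replicate 2. The slp1 peak (2L, 3822694 to 3823043) was 2806 bp upstream of slp1 (FBgn0003430), with a signal of 90.5, and 38.3 and 44.6 in the replicates. The summits were 9668 bp apart and the TSSs 11165 bp. The slp2 peak was the higher one in both replicates, and it alone was past the threshold in an own list, that of replicate 1.

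The single peak of bin, which encodes the FoxF factor Biniou of the visceral mesoderm, lay 1234 bp upstream of the gene (FBgn0045759; peak at 3L, 6989213 to 6989562) in intergenic sequence. Its signal was 94.2 in the pooled list, 41.1 in replicate 1 and 55.5 in replicate 2. The value in replicate 2 was the higher one, the widest such difference among the 11, and the peak was past the threshold in neither replicate's own list. Only 6 ranked peaks were given to bin, the fewest of the 8 genes.

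**Figure D3:**
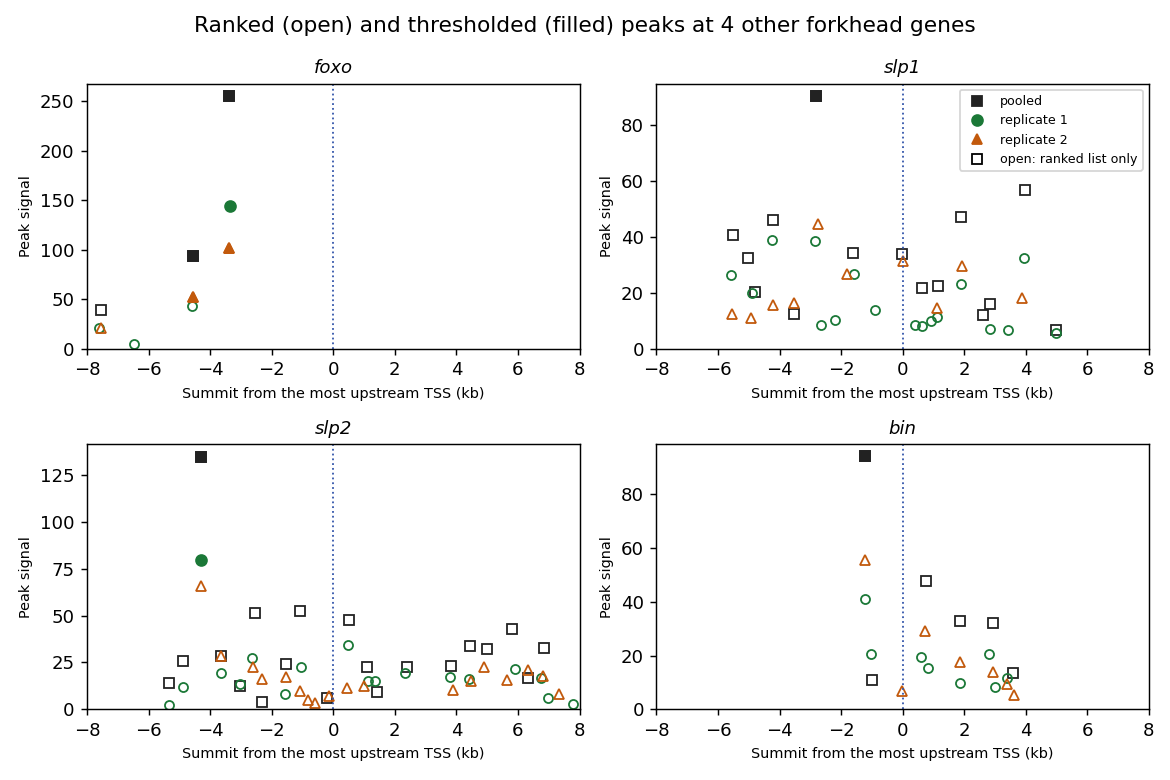
Signal (y axes, deposited value) of the peaks given to foxo, slp1, slp2 and bin against the position of their summits (x axes, kb) from the most upstream TSS, within 8 kb of it. Filled marks are peaks of the thresholded lists and open ones are in the ranked lists only. The filled marks lie 1234 to 4548 bp upstream of the TSS, and foxo has no ranked peak between its TSS and 8 kb downstream.

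The genes without a series peak were not without signal in the ranked list. For jumu (FBgn0015396), which encodes a FoxN-type protein, the highest peak was in an intron 6817 bp downstream of the TSS (3R, 10356824 to 10357173). Its signal was 66.8 in the pooled list, 41.7 in replicate 1 and 47.3 in replicate 2, so that both replicate values lay within the range of the 11 series peaks. It was just under the threshold, with a score of 817 and a −log10 IDR of 1.97. In the ranked list that compares the replicates, the same peak had a score of 996 and a −log10 IDR of 2.40, past the value of 2, but the conservative list made from it does not hold the peak. It was 1 of 71 peaks of that ranked list left out in this way, for which no reason is stated in the labels or the files.

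For croc (FBgn0014143), a FoxC-type gene of the head, the highest ranked peak was intergenic, 3270 bp from the TSS and beyond the end of the gene (3L, 21473034 to 21473383). Its pooled signal of 82.0 was close to the lowest of the 11 series peaks, 86.5, but its score was 410 and its −log10 IDR 0.989. The own ranked lists gave the croc peak 39.8 in replicate 1 and 31.0 in replicate 2. For fkh (FBgn0000659), the FoxA gene of the salivary gland and gut, 40 ranked peaks reached at most 57.3. That peak lay in a coding exon 2529 bp downstream of the TSS (3R, 28582408 to 28582757), with 23.1 in replicate 1, 30.8 in replicate 2 and a score of 315. Its score in the list that compares the replicates was 369.

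**Figure D4:**
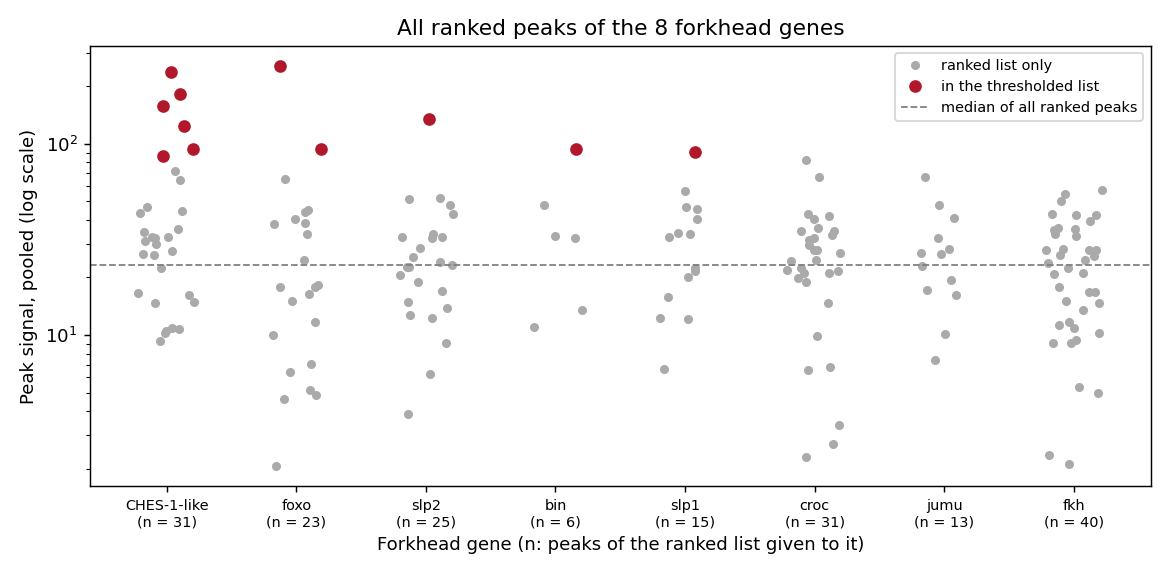
Signal in the pooled list (y axis, log scale) of all 184 ranked peaks of the 8 forkhead genes (x axis), with series peaks in red and the median of all ranked peaks, 23.3, as a dashed line. Each of CHES-1-like, foxo, slp2, bin and slp1 has its red points above its grey ones, while fkh, with 40 peaks, has none above 57.3.

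The ranked peaks of the 8 genes, counted with the 11 series peaks among them, had a median signal near that of the whole ranked list. Of the 184 ranked peaks, 100 (54.3%) were above the median of all ranked peaks, with a median of 25.7 against 23.3. By gene, the share above it ran from 43.5% at foxo (10 of 23) to 67.7% at CHES-1-like (21 of 31). The 5% of ranked peaks with the highest signal held 20 of the 184, of which 8 were at CHES-1-like. The 11 series peaks were all among these 20.

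Within 500 bp of a TSS the highest ranked peak in the pooled list had a signal of 124 at CHES-1-like, 42.2 at fkh, 33.8 at slp1, 19.4 at jumu, 14.8 at croc and 6.29 at slp2, and there was none at bin or foxo. Only the value at CHES-1-like belonged to a series peak, and those at fkh and slp1 were also above the median of all ranked peaks, at the 86.5 and 73.6 percentiles. The order was not the same in each replicate. At slp2 the value was 34.6 in replicate 1 (percentile 97.0) and 11.4 in replicate 2 (percentile 37.0). At slp1 it was 8.63 in replicate 1 (percentile 22.9) and 31.4 in replicate 2 (percentile 96.3). These values depend on the 500 bp limit. In the pooled list a slp2 peak just past it, 516 bp downstream of the TSS, had a signal of 47.7 (percentile 91.8). A pooled croc peak 561 bp downstream had 42.9 (percentile 87.3). The slp2 peak of 34.6 in replicate 1 lay just inside the limit, 476 bp downstream.

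Summits no more than 500 bp from a TSS numbered 2 among the 11 (18.2%), both at CHES-1-like, and 503 among all 1140 (44.1%). At more than 1000 bp lay 8 of the 11 (72.7%) and 522 of all (45.8%). Of the 11 summits, 5 were in introns of CHES-1-like, 1 in its 5' UTR and 5 in intergenic sequence. Seen by gene, the intron sites are those of CHES-1-like and the intergenic ones those of foxo, slp1, slp2 and bin. With 11 peaks, 6 of them from 1 gene, these shares describe a few loci.

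The replicates did not give the peaks the same calls. In its own ranked list each of the 11 lay above 98.2% of peaks in replicate 1 and above 99.3% in replicate 2. The series list was chosen by a low IDR, so high percentiles follow largely from that choice. Near the top of lists this long, small steps in percentile are large steps in rank. The bin peak, for example, lay above 98.7% of peaks in replicate 1 and above 99.6% in replicate 2. Past the threshold in both own lists were 4 of the 11 (36.4%; 33.9% of all series peaks), namely the stronger foxo peak and the 3 strongest CHES-1-like peaks. Replicate 1 alone called 3 (27.3%; 29.1% of all), and 3 (27.3%; 32.0% of all) were called in neither. Replicate 2 alone called 1, the weaker foxo peak (9.09%; 5.0% of all). The own thresholded list of replicate 1 was the longer one, with 777 peaks against 468. All 11 were in the conservative list. The summits of the replicates' own peaks were 0 to 79 bp apart, with a median of 5 bp, against a median of 20.0 bp over the 1112 series peaks present in both ranked lists.

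The ratio of the signals in replicates 1 and 2 ran from 0.740 at bin to 1.73 at the strongest CHES-1-like peak, with a median of 1.05. Over the 1112 series peaks the median was 1.29. Replicate 1 was higher at 6 of the 11 and at 77.0% of all. The 5 forkhead peaks of highest signal had higher values in replicate 1 except the CHES-1-like peak of 182, where the ratio was 0.987. The 4 of lowest signal had higher values in replicate 2. Among all series peaks too, replicate 1 was higher less often among the 278 of lowest signal (67.6%) than among the 278 of highest signal (89.2%). These ratios also hold any difference in scale between the lists of the replicates, so they do not measure scatter alone. With 2 replicates, the order of peaks with close signals is a description and was not tested.

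**Figure D5:**
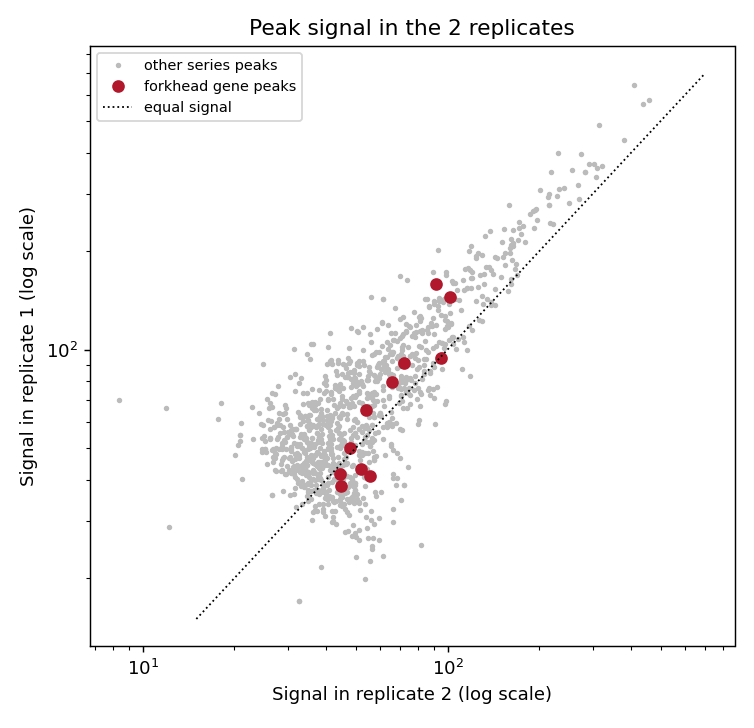
Signal in replicate 1 (y axis, log scale) against signal in replicate 2 (x axis, log scale) for the 1112 series peaks in both ranked lists, with the 11 forkhead peaks in red and a dotted line of equal signal. The red points lie among the others, 6 above the line and 5 below it.

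In the sequences, the element ACAGTG lay within 100 bp of 5 of the 11 summits (45.5%) and of 258 of all 1140 (22.6%). Within 50 bp it was at 4 of 11 and at 7.46% of all. The 5 summits within 100 bp were 4 of CHES-1-like and that of slp2, and 3 of the 4 within 50 bp were of CHES-1-like. The sequence elements had been chosen with earlier results of these data known, so no enrichment is read from their shares. In the window of the strongest CHES-1-like peak the element lies at X, 7706902 to 7706907, just before the start of the peak at 7706908. The CHES-1-like window shown second holds it 4 times, in both orientations, starting 65 and 47 bp before and 77 and 90 bp after the summit. At slp2 its 6 bases lie over the summit itself, and in the 5' UTR of CHES-1-like they start 2 bp before the summit. The windows of foxo, bin and slp1 held none.

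The forkhead core TAAACA was at 2 of the 11 summits (18.2%) and at 23.2% of all. At bin it occurred 3 times in the window, all on the minus strand and starting 26 bp before and 24 and 73 bp after the summit, and at slp2 once. The T-box site GGTGTGA was within 100 bp of 1 of the 11 summits, that of the strongest CHES-1-like peak, and of 1.58% of all. It started 71 bp after that summit, at X, 7707042, which is past the end of the 128 bp peak at 7707035. The shorter core GTGTGA, searched after the sequences had been seen, was at 2 of the 11 and at 10.5% of all. At slp2 it occurred at 2 places on the minus strand, and the copy at the summit overlaps ACAGTG. A match is only a run of letters and does not show binding at it.

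Of the other elements searched, TTAAAA was at 5 of the 11 summits (45.5%; 43.9% of all), TAATTA, a homeodomain site, at 2 (18.2%; 14.4%), and GAGAG, found at sites of the factor Trl, at 2 (18.2%; 25.4%). The element TATCGATA was at none, and at 2.02% of all. The GC content of the 201 bases ran from 21.4% at bin to 43.8% at slp1, with a median of 35.3%, against 37.3% over all series peaks. The windows of slp1 and of the stronger foxo peak held none of the 8 elements. The slp1 window has a 32 bp stretch in which the 10 bases TCCATAGTTT recur side by side 3.20 times. A repeat of 30 bp or more, with units of 4 to 15 bases, was found in the windows of 4 of the 1140 series peaks (0.351%).

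None of the other 10 forkhead genes looked up (fd3F, fd59A, FoxL1, fd96Ca, fd96Cb, fd102C, FoxK, FoxP, fd19B and CG32006) had a series peak, beside the 7.82% of all genes. Their ranked peaks reached at most 59.8, at FoxL1, and 5 of the 10 had no ranked peak by the same rule. The share of all genes without a ranked peak was not counted, so nothing is read from these 5. Of 26 genes known to act with or beside the 8, 2 (7.69%) had a series peak. These were ems, a head gap gene, with 2 intergenic peaks 13066 and 13961 bp from its TSS (signals 89.6 and 84.7), and fz, a Wnt receptor gene, with 1 in an intron (signal 101). The fz peak was not in the conservative list or in either replicate's own thresholded list, and it had a ranked peak in replicate 2 (43.2) but none in replicate 1. Neither ems peak was in a replicate's own thresholded list, but ems had 2 in the conservative list. Of the insulin signalling genes, InR, chico, Akt, Thor and Pi3K92E had no series peak, and neither did tin, pnr or bap. InR had 1 in the own thresholded list of replicate 2, with a signal of 61.0. Mef2 had a peak in the conservative list only, with a signal of 79.3.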

How the data were processed

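The peaks come from ChIP-seq of whole Doc2-GFP embryos with an anti-GFP antibody, in 1 group of 2 biological replicates. The authors deposited thresholded and ranked peak lists on dm6, for each replicate and for the series. Per the labels, a control entered the peak calls; it was not analysed here. Neither the labels nor the files name the aligner or the peak caller. The deposited signal is the authors' value for each peak, used as given. The deposited score is the scaled irreproducible discovery rate (IDR), and the ranked lists also give its deposited −log10. Read counts were not used, so the depth behind each peak is unknown. In the series ranked lists 4 columns of signals of the sets compared name no sample and were not used. The series thresholded list is contained in 1 ranked list and the conservative list in the other, and the second was taken as the comparison of the replicates.

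Only the major chromosome arms and 4 were kept, leaving out 90 of 1230 series peaks. A peak was given to a gene when its summit (start plus deposited offset) had that gene's transcription start site (TSS) nearest, or lay in its body, with the protein-coding genes of Ensembl release 115. Values of the replicates are those of the overlapping peak of highest signal (1 bp or more) in each replicate's own ranked list. Motifs were searched on both strands within 100 bp of summits in the RefSeq sequence of the same assembly (Release 6). All members are named, as are genes of the other lists with a series peak and the gene outside the 8 with the same number of peaks as CHES-1-like. The members, lists and sequence elements were chosen with earlier results of these data known, so no test was run and counts are descriptions. Steps were tested on planted positions. The alternatives tried were the conservative list, a single replicate, other rules for giving peaks to genes and other windows. Python 3.11.15, numpy 2.4.6, pandas 2.3.3 and matplotlib 3.10.9 were used.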

Additional observations from a re-analysis of the deposited data

How the results depend on the processing

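The 11 peaks and the 5 genes with a peak were also found with the conservative list, with scores of 1000 only, with nearest TSSs alone, with TSSs of genes of any type, with gene bodies and 5 kb in place of nearest TSSs, and with overlapping peaks merged. They were fewer with 1 replicate: leaving out each in turn left 5 to 7 peaks and 2 to 3 genes, a median of the genes' highest signals of 98.7 to 144 (134 with both) and a promoter share of 0% to 28.6% (18.2% with both). Without replicate 1 the list, of 468 peaks, held 3 CHES-1-like and 2 foxo peaks. Without replicate 2 the list, of 777 peaks, held 5 CHES-1-like peaks, 1 of foxo and 1 of slp2. Signals of a replicate and of the pooled list are not on 1 scale. The forkhead core was at 2 of 11 summits within 100 bp, at 1 within 50 bp and at 4 within 150 bp, and at 0 to 1 of the summits with 1 replicate. The cause was not tested. The median ratio of the replicates was 1.05 also where 50% of the peak had to be covered, and the median ratio of rank percentiles was 0.999. Percentiles this near the top can hardly differ, so the last ratio says little. The planned use of the signals inside the replicate comparison was not run, since its columns name no replicate. Leaving out a replicate for the promoter share and the motifs was added after the data had been seen. Read depth is unknown, so a gene without a series peak is one where no peak passed the threshold, not one without binding. No paired analysis was possible because there was 1 group and no test between groups.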
